A study of Homo sapiens with 8 samples.

Results

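The genes described here are 10 genes of sphingolipid metabolism in Hep3B, a human hepatocellular carcinoma cell line, out of 16169 gene names listed in the RNA-seq tables. They are the serine palmitoyltransferase subunits SPTLC1, SPTLC2 and SPTLC3, the ceramide synthases CERS2, CERS5 and CERS6, the sphingosine kinases SPHK1 and SPHK2, the sphingosine-1-phosphate exporter SPNS2 and the sphingosine-1-phosphate lyase SGPL1. SPTLC3 and SPNS2 were chosen because the libraries labelled SOX4 knockout held more of them, and the others because they act beside them in the pathway. Values of that comparison are therefore given for the 10 genes as a description.

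The 8 libraries were all of Hep3B cells, with 2 per condition. The first comparison set Hep3B, labelled WT, against Hep3B labelled SOX4-/-, in which the gene of the transcription factor SOX4 was targeted. The second set Hep3B transfected with control si, a control siRNA, against Hep3B transfected with STAT6 si, an siRNA against the transcription factor STAT6. The study's methods describe a pair of knockout lines, made by CRISPR/Cas9 and kept in puromycin, and refer the deposited knockout data to both of them. The labels do not say which library is which line, so the spread between the knockout libraries can include differences between lines. The labels give neither separate cultures for the libraries nor a time after transfection, so p-values measure the spread between these libraries, which may be technical. Library totals ranged from 16266282 to 25353113 expected counts, that is, estimated reads assigned to transcripts. Levels are CPM, counts scaled to the size of the library, after TMM normalization, which was done separately for each comparison. In RNA of a whole culture, a change in the share of cells that express a gene and a change within each cell cannot be told apart. SOX4 stood at 799 and 266 CPM in Hep3B libraries 1 and 2 and at 298 and 302 CPM in the libraries labelled SOX4 knockout, so its transcript gave no check of that label. In the same libraries STAT6 was at 32.0 and 13.2 CPM in Hep3B and at 2.76 and 2.20 CPM in the knockout libraries (-3.18 on the log2 scale, adjusted p = 0.0275, edgeR). STAT6 stood at 42.5 and 31.4 CPM with control siRNA and at 9.92 and 5.98 CPM with STAT6 siRNA (log2 fold change -2.22, standard error 0.72, adjusted p = 1.0, edgeR quasi-likelihood test with Benjamini-Hochberg adjustment). All 12 hepatocyte markers listed for this work were at 1 CPM or more in all 8 libraries. Their summed level was 18200 and 13000 CPM in Hep3B and 56500 and 33600 CPM in the libraries labelled SOX4 knockout. In that comparison 4 of 12 rose at an adjusted p-value below 0.05 (APOA1, APOH, TTR and FGB, edgeR), where 4.5% of all genes tested rose. Of the 12, 2 had log2 fold changes below 0, among them AFP at -0.76. The part of the difference in hepatocyte markers in the results below was not tested. Of 12 markers of other cell types, 4 were not listed in each table, among them CD3E of T cells and VWF and CDH5 of endothelial cells. Of those listed, 7 were tested in the knockout comparison, 6 had log2 fold changes above 0 and the median was 1.22. PDGFRB, a receptor of pericytes and fibroblasts, rose from 2.84 and 1.27 CPM to 9.88 and 13.9 CPM (adjusted p = 0.0494, edgeR). The summed level of these markers was 765 and 668 CPM in Hep3B and 932 and 961 CPM in the knockout libraries, and its part in the results below was not tested either.

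Sphingolipids are built from serine and a fatty acyl-CoA. Serine palmitoyltransferase carries out the first step with SPTLC1 joined to either SPTLC2 or SPTLC3, and ceramide synthases then attach a fatty acid of a length that depends on the enzyme. Ceramide can be made into sphingomyelin or glycosphingolipids, or broken down to sphingosine. Sphingosine kinases phosphorylate sphingosine, and the resulting sphingosine-1-phosphate is exported, is bound by receptors on the cell surface, or is cleaved by the lyase in the only known exit from the pathway.

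SPTLC3 and SPNS2 stood apart from the other 8 genes in the comparison of the libraries labelled SOX4 knockout with Hep3B. SPTLC3 had at most 1 count in a Hep3B library and at least 82 in a knockout library, and SPNS2 at most 39 and at least 1484. SPTLC1, SPTLC2, CERS6 and SGPL1 were lower in both knockout libraries than in either Hep3B library, and CERS2 and SPHK2 were higher. CERS5 and SPHK1 overlapped between the groups. An adjusted p-value below 0.05 was reached by 2 of the 10 genes, SPTLC3 and SPNS2, where 5.89% of the 14415 genes tested reached it. Libraries of the groups did not overlap for 4 genes that were higher and 4 that were lower, where 58.0% of all genes tested did not overlap. As the genes were chosen from this comparison, nothing is read from these counts. All 10 genes passed the filter on low counts in this comparison, SPTLC3 through the knockout libraries alone.

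**Figure D1:**
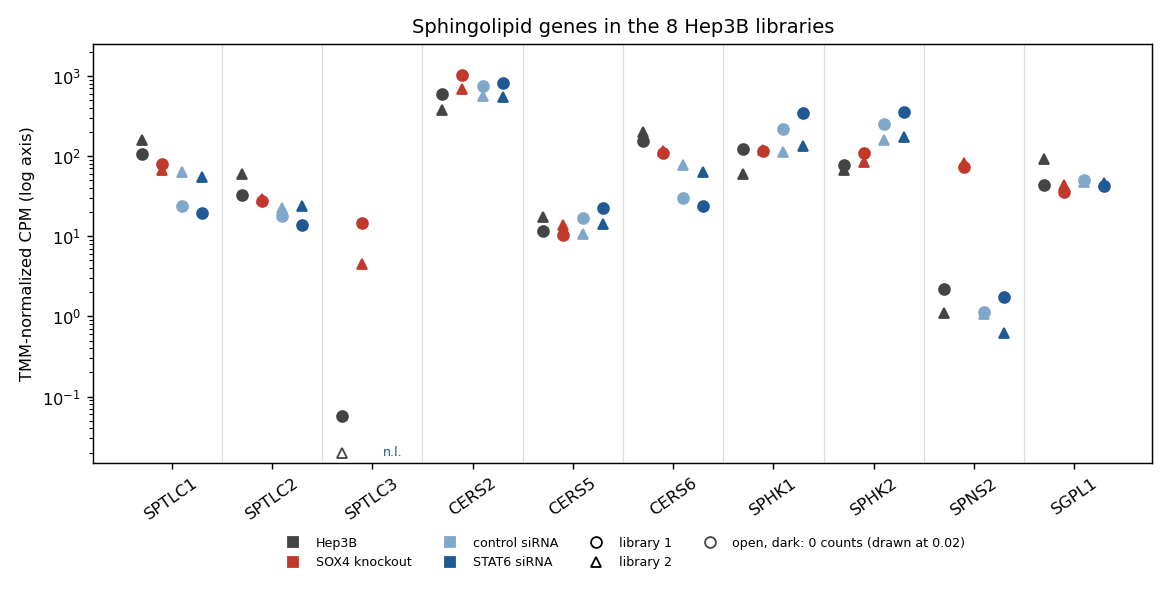
TMM-normalized CPM (log axis) of the 10 genes in the 8 libraries, with colours for the 4 conditions, circles for library 1 and triangles for library 2, and the open triangle at 0.02 for the Hep3B library with 0 SPTLC3 counts (n.l., not listed in the siRNA table). SPTLC3 and SPNS2 are the genes whose knockout libraries stand far above Hep3B, and SPNS2 is at 1.76 CPM or lower in the siRNA experiment.

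SPTLC3 is the subunit that can take the place of SPTLC2 and widens the range of acyl chains used. Its transcript NM_018327 lies on the forward strand of chromosome 20, from 13008979 to 13166765 (hg38). The reads of it were 1 and 0 counts in Hep3B libraries 1 and 2 (0.0568 and 0 CPM) and 385 and 82 counts in libraries 1 and 2 labelled SOX4 knockout (14.6 and 4.51 CPM). The knockout libraries lay above both Hep3B libraries and library 2 differed from library 1 by -1.67 on the log2 scale. Against a floor of 3 counts per Hep3B library, SPTLC3 was at least 58.1-fold higher over both knockout libraries. The bound was 88.8-fold for knockout library 1 alone and 27.4-fold for knockout library 2 alone. In the siRNA experiment SPTLC3 was not listed. As transcripts with fewer than 10 counts over the 4 libraries of a table are not listed, this corresponds to less than 0.128 CPM over those libraries if the transcript was counted there, and no fold change can be given.

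SPTLC2 and SPTLC1 did not share this direction. SPTLC2 is the more widely expressed partner of SPTLC1, and both its transcript NM_004863 (chromosome 14, 77505997 to 77616768, reverse strand) and SPTLC1 (chromosome 9, 92031134 to 92115475, reverse strand) were detected in every library. SPTLC2 had 32.3 and 59.8 CPM in Hep3B and 27.8 and 29.1 CPM in the knockout libraries, which makes -0.70 ± 0.41 on the log2 scale (standard error). SPTLC1 had 105 and 157 CPM in Hep3B and 79.4 and 67.7 CPM in the knockout libraries, or -0.83 ± 0.36. The groups did not overlap for either gene. For both genes the gap between the closest libraries of the groups was smaller than the gap between the Hep3B libraries. With Hep3B library 2 left out, SPTLC2 was at -0.19.

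Set against transcript length, SPTLC3 made up 0.232% and 0% of the sum of SPTLC2 and SPTLC3 in Hep3B libraries 1 and 2. In knockout libraries 1 and 2 it made up 41.0% and 17.0%. SPTLC2 alone was the main form in every library. By counts, SPTLC3 was 0 of 1133 in Hep3B library 2, which allows a share of up to 0.265% on a floor of 3 counts and up to 0.325% by the exact interval, and 1 of 571 in Hep3B library 1 (exact 95% binomial interval 0.00443 to 0.972%). It was 385 of 1118 in knockout library 1 (31.7 to 37.3%) and 82 of 611 in knockout library 2 (10.8 to 16.4%), with intervals that cover counting error only. The sum of both per kilobase was 3.97 and 7.32 CPM in Hep3B and 5.76 and 4.29 CPM in the knockout libraries, so this summed level overlapped between the groups. SPTLC1 per kilobase was 10.1 to 14.0 times as high as SPTLC2 in these 4 libraries. For SPTLC3 the length is that of the longest GENCODE transcript of the gene, and the lengths of the other 9 genes were matched by transcript.

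**Figure D2:**
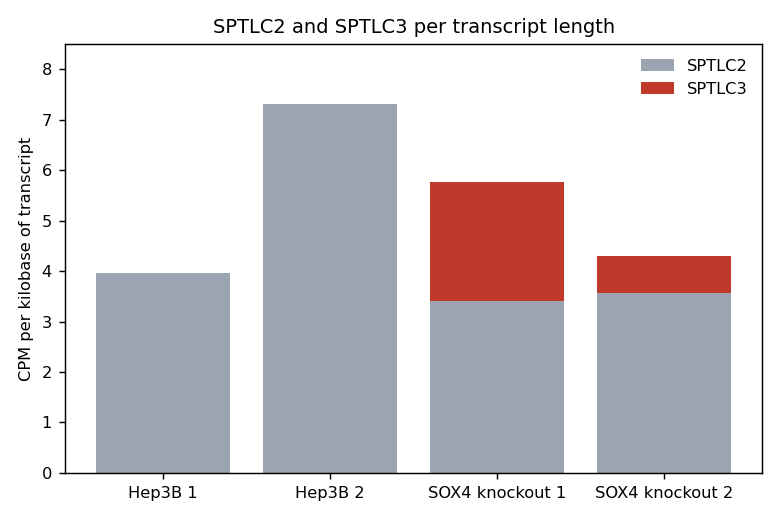
Stacked bars of SPTLC2 and SPTLC3 in CPM per kilobase of transcript in the Hep3B libraries and the libraries labelled SOX4 knockout. SPTLC3 adds 2.36 and 0.731 CPM per kilobase to SPTLC2 in the knockout libraries, and the bar totals of the groups overlap.

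The ceramide synthases had smaller differences, of which CERS2 was above 0 and the others below. CERS2, which makes ceramides with very long acyl chains and is abundant in liver, had 593 and 373 CPM in Hep3B and 1030 and 683 CPM in the knockout libraries (0.83 ± 0.46 on the log2 scale). The closest libraries of the groups differed by less than the Hep3B libraries did. CERS6, which prefers shorter chains, had 154 and 197 CPM in Hep3B and 110 and 117 CPM in the knockout libraries (-0.62 ± 0.34). In a fit corrected for GC content and length, CERS6 was at -0.33. CERS5, of similar preference, had 11.5 and 17.6 CPM in Hep3B and 10.3 and 14.0 CPM in the knockout libraries (-0.26 ± 0.44), and its groups overlapped. Per kilobase, CERS2 made up 89.8% and 80.7% of these 3 ceramide synthases in Hep3B and 95.3% and 92.3% in the knockout libraries. CERS6 made up 8.18% and 14.9% in Hep3B and 3.59% and 5.54% in the knockout libraries. CERS2 was the highest of the 10 genes per kilobase in every library. CERS6 shares 3185 bases with CERS6-AS1 on the other strand, where reads could belong to either gene if strand was not used in counting. CERS6-AS1 had 5.45 and 1.32 CPM in Hep3B and 2.39 and 0.495 CPM in the knockout libraries (-1.21 on the log2 scale).

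Of the sphingosine kinases, neither showed a direction that held under all ways of processing. SPHK1, the mainly cytosolic kinase, had 123 and 59.3 CPM in Hep3B and 117 and 118 CPM in the knockout libraries, so both knockout values lay between those of Hep3B (0.37 ± 0.41). SPHK2, the kinase also found in the nucleus and mitochondria, had 76.3 and 67.9 CPM in Hep3B and 108 and 83.8 CPM in the knockout libraries (0.41 ± 0.34). In the fit corrected for GC content and length, SPHK2 was at -0.12 and SPHK1 at -0.13. Per kilobase, SPHK1 made up 50.4 to 70.0% of the 2 kinases over all 8 libraries. Most SPHK2 counts were assigned to NM_001204160, which starts inside the locus at position 48624952 of chromosome 19 (hg38) and took 64.7 to 87.9% of the counts of the gene. SPHK2 shares 129 bases with RPL18 on the other strand, where reads could belong to either gene if strand was not used in counting.

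SPNS2, the transporter that carries sphingosine-1-phosphate out of the cell, lies on chromosome 17 from 4498834 to 4539934 on the forward strand. Its level was 2.21 and 1.11 CPM in Hep3B and 73.7 and 81.6 CPM in the knockout libraries, with means of 1.66 ± 0.782 and 77.7 ± 5.56 CPM (SD, n = 2). The knockout libraries were alike and far above Hep3B, with 5.55 ± 0.50 on the log2 scale. Fits with 1 library fewer gave 5.12 to 6.06. In contrast with SPTLC3, the 2 knockout libraries differed by 0.15 on the log2 scale. SPNS2 overlaps MYBBP1A, a nucleolar protein gene on the other strand, by 1039 bases. MYBBP1A had 147 and 104 CPM in Hep3B and 44.3 and 126 CPM in the knockout libraries (-0.56 on the log2 scale, adjusted p = 0.517 from edgeR), with groups that overlapped. Whether strand was used in counting is not stated.

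SGPL1, which cleaves sphingosine-1-phosphate irreversibly, had 43.6 and 92.8 CPM in Hep3B and 35.7 and 43.2 CPM in the knockout libraries. This made -0.79 ± 0.44 on the log2 scale, and -0.15 without Hep3B library 2. Hep3B library 1 and knockout library 2 were nearly equal, so that the difference rested on Hep3B library 2.

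**Figure D3:**
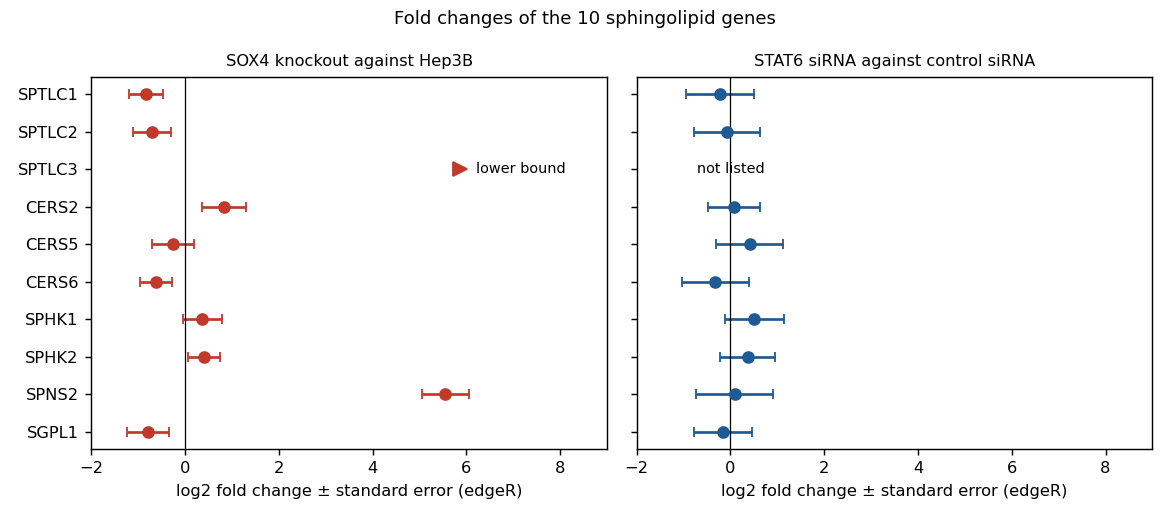
Log2 fold changes with standard errors (edgeR) of the 10 genes in the libraries labelled SOX4 knockout against Hep3B (left) and in STAT6 siRNA against control siRNA (right), with the lower bound of 58.1-fold drawn as an arrow for SPTLC3. SPNS2 stands at 5.55 on the left and at 0.09 on the right.

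Knockdown of STAT6 addresses whether these genes respond to loss of that factor, a comparison whose values were not used to choose them. None of the 9 genes listed passed the test, with an adjusted p-value of 1.0 for each. STAT6 itself also did not pass, at a log2 fold change of -2.22, so this test cannot decide whether the 9 genes responded. With the library number as a block STAT6 passed, at -2.25, and none of the 9 genes did. Without the block, 0.0% of 13554 genes tested in this comparison passed with edgeR, 14 had an unadjusted p-value below 0.05 (0.103%), and DESeq2 also called 0. SPNS2 had 1.13 and 1.07 CPM with control siRNA and 1.76 and 0.619 CPM with STAT6 siRNA. The values of the 2 groups overlapped, and the log2 fold change was 0.09 (95% interval -1.68 to 1.86). These levels rest on 20, 24, 24 and 15 counts. Whether SPNS2 differed in response between the experiments was not tested.

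SPHK1 had 220 and 112 CPM with control siRNA and 342 and 132 CPM with STAT6 siRNA, a log2 fold change of 0.51 (95% interval -0.85 to 1.87). SPHK2 had 250 and 157 CPM with control siRNA and 350 and 175 CPM with STAT6 siRNA (0.37, -0.90 to 1.63). For both kinases the library numbered 1 was higher than the library numbered 2 in each group, and the groups overlapped. SPTLC1 had 24.1 and 62.7 CPM with control siRNA and 19.5 and 54.9 CPM with STAT6 siRNA (-0.22, -1.79 to 1.34). CERS6 had 30.0 and 77.2 CPM with control siRNA and 23.5 and 62.5 CPM with STAT6 siRNA (-0.32, -1.84 to 1.21). In these 2 genes the library numbered 2 was the higher one in each group. SPTLC2 had 17.9 and 22.4 CPM with control siRNA and 14.0 and 24.0 CPM with STAT6 siRNA (-0.08, -1.58 to 1.42). CERS2 had 739 and 566 CPM with control siRNA and 825 and 551 CPM with STAT6 siRNA (0.08, -1.12 to 1.28). CERS5 had 17.1 and 10.6 CPM with control siRNA and 22.4 and 14.4 CPM with STAT6 siRNA (0.41, -1.13 to 1.96). SGPL1 had 50.2 and 48.0 CPM with control siRNA and 42.0 and 46.0 CPM with STAT6 siRNA (-0.16, -1.46 to 1.15). It was the 1 gene of 9 whose groups did not overlap, where 8.0% of all genes tested did not. It was lower, as were 5.26% of all genes, and 0 of the 9 were higher, where 2.74% of all genes were. The intervals leave room for changes of more than 1 on the log2 scale in either direction for 7 of the 9 genes, and downward changes of 0.85 and 0.90 for SPHK1 and SPHK2. Log2 differences from control siRNA within numbers 1 and 2 were -0.26 and -0.06 (SGPL1), 0.39 and 0.45 (CERS5) and -0.35 and -0.30 (CERS6). They were -0.30 and -0.19 (SPTLC1), 0.63 and 0.24 (SPHK1) and 0.49 and 0.15 (SPHK2). The sign differed between the numbers for SPTLC2 (-0.35 and 0.10), CERS2 (0.16 and -0.04) and SPNS2 (0.60 and -0.70). No label states that the numbers pair.

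The library numbers moved with base composition in the siRNA experiment. Over the 13401 genes with a GC content, the difference of library 2 from library 1 had a Spearman correlation with GC of -0.754 in control siRNA and -0.819 in STAT6 siRNA, as a description across genes that share 4 libraries. SPTLC1, with 42.9% GC, was higher in library 2 by 1.37 (control siRNA) and 1.48 (STAT6 siRNA) on the log2 scale. CERS6, with 41.5% GC, was higher in library 2 by 1.36 and 1.41. SPHK1, with 65.2% GC, was instead lower in library 2, with differences of -0.98 and -1.37. The fold change with STAT6 siRNA itself had a correlation with GC of 0.595 over the same genes. In the fit corrected for GC content and length, SPHK1 was at 0.15 and SPHK2 at 0.04 with STAT6 siRNA. The main fit gave 0.51 and 0.37 for them, and CERS5 went from 0.41 to 0.47. The part of GC content in the values of the kinases was not tested further. In the knockout experiment the corresponding correlations were -0.087 in Hep3B, 0.286 in the knockout libraries and 0.25 for the fold change. SPTLC3 had the lowest GC content of the 10 genes, 40.3%, and SPNS2, at 64.4%, one of the highest. In the fit corrected for GC content and length, SPNS2 was at 5.09.

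**Figure D4:**
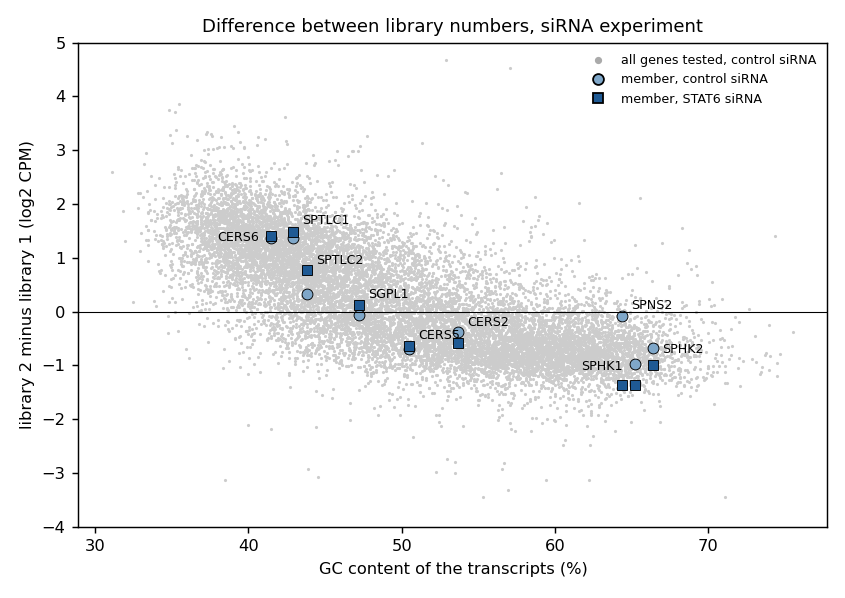
Difference of library 2 from library 1 (log2 CPM) against the GC content of the transcripts (%) in the siRNA experiment, with all genes tested in control siRNA in grey and the 9 genes as circles (control siRNA) and squares (STAT6 siRNA). SPTLC1 and CERS6 lie above 0 and the kinases below 0 in both groups.

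Genes with the most similar course over the 4 libraries of the knockout experiment were found by the root mean square difference of centred log2 CPM, over genes that averaged 50 counts or more. For SPTLC3 these included UGT2B15 (0.17), MUC5AC (0.25), SLITRK6 (0.39) and ITIH1 (0.43). These 4 were higher in knockout library 1 than in knockout library 2, as SPTLC3 was. UGT2B15, a glucuronosyltransferase, had 2.72 and 2.32 CPM in Hep3B and 274 and 87.9 CPM in the knockout libraries, and shares sequence with other members of its family, so its counts are uncertain. For SPNS2 these were CTSF (0.21), DUOX1 (0.22), PLBD1 (0.22), NPR1 (0.22) and S100A1 (0.24). NPR1, the receptor of atrial natriuretic peptide, had 2.55 and 1.21 CPM in Hep3B and 62.5 and 65.2 CPM in the knockout libraries. Likeness over 4 libraries says which libraries were high, and the genes were selected for it.

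Beyond the 10 genes, 63 other genes of sphingolipid metabolism were listed by role. As the list was written with earlier results of these data known, its shares and median beside those of all genes are a description. In the knockout comparison 58 were in the table, 56 were tested, 6 rose and 0 fell at an adjusted p-value below 0.05. The 6 are 10.7% of those tested, where 4.5% of all genes tested rose and 1.39% fell. The median log2 fold change of the list was 0.35, where that of all genes was 0.0082. Libraries of the groups did not overlap for 26 genes that were higher, where 30.6% of all genes were, and for 11 that were lower, where 27.4% were. The count depended on single libraries, as it was 1 without knockout library 1, 0 without knockout library 2, 12 without Hep3B library 1 and 11 without Hep3B library 2.

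S1PR3, a receptor for sphingosine-1-phosphate, had 3.92 and 1.79 CPM in Hep3B and 53.2 and 68.5 CPM in the knockout libraries. Both knockout libraries were far above Hep3B (4.41 ± 0.51, adjusted p = 0.0113, edgeR quasi-likelihood test). It passed the test in 12 of 13 alternatives, all but the one without knockout library 2. The other receptors tested, S1PR1 and S1PR2, had log2 fold changes of -0.18 and 0.02. SPTSSB, a small subunit that raises the activity of serine palmitoyltransferase, had 7.49 and 4.43 CPM in Hep3B and 117 and 57.1 CPM in the knockout libraries (3.87 ± 0.52, adjusted p = 0.0153, edgeR). It passed the test in 11 of 13 alternatives, not in those without either knockout library. Its counterpart SPTSSA did not pass, with 66.5 and 57.1 CPM in Hep3B and 60.6 and 85.3 CPM in the knockout libraries. The ORMDL proteins, which restrain serine palmitoyltransferase, had log2 fold changes of -0.64 (ORMDL1), 1.61 (ORMDL2) and 0.89 (ORMDL3), and none passed the test.

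Of the enzymes of breakdown, ARSA, which removes sulfate from sulfatide, had 12.7 and 6.22 CPM in Hep3B and 47.0 and 41.1 CPM in the knockout libraries (2.22 ± 0.45, adjusted p = 0.0364, edgeR). SMPD1, the acid sphingomyelinase of the lysosome, had 19.9 and 39.2 CPM in Hep3B and 115 and 105 CPM in the knockout libraries (1.89 ± 0.42, adjusted p = 0.0447, edgeR). PLPP3, a lipid phosphatase that acts on sphingosine-1-phosphate outside the cell, had 23.3 and 28.5 CPM in Hep3B and 76.8 and 108 CPM in the knockout libraries (1.83 ± 0.37, adjusted p = 0.0363, edgeR). On the side of synthesis, GAL3ST1, which makes sulfatide, had 4.77 and 3.11 CPM in Hep3B and 19.9 and 15.9 CPM in the knockout libraries (2.18 ± 0.47, adjusted p = 0.0419, edgeR). ARSA and GAL3ST1 thus rose together although they act on the same lipid in opposite directions. ARSA, SMPD1 and GAL3ST1 each passed the test in 8 of 13 alternatives and PLPP3 in 9. In the fit corrected for GC content and length, 3 of the 6 passed, S1PR3, SPTSSB and PLPP3. GM2A, the activator of ganglioside breakdown, was among the 5 largest by fold change of those with a mean of at least 20 counts but did not pass the test (2.01 ± 0.62, adjusted p = 0.0951, edgeR). It passed in 3 of 13 alternatives.

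By role, the 8 genes of glycosphingolipid synthesis tested all had log2 fold changes above 0, from 0.05 to 2.18, of which 1 passed the test and 4 overlapped between the groups. The 4 ceramidases tested all had log2 fold changes below 0, from -0.98 (ASAH1, the acid ceramidase) to -0.38 (ACER3), and none passed the test. Their libraries did not overlap, where 27.4% of all genes tested were lower without overlap. ASAH2 rests on 9 to 23 counts per library and ACER2 on 27 to 53. ASAH1 had 162 and 101 CPM in Hep3B and 80.9 and 52.0 CPM in the knockout libraries. The 9 genes of sphingomyelin synthesis and breakdown ran from -1.10 (SMPD4) to 1.89 (SMPD1). SGMS1 and SGMS2, the sphingomyelin synthases, stood at 0.80 and 0.95 and did not pass the test. In the group of sphingosine-1-phosphate breakdown, PLPP2 had the lowest value of the list, -2.97, on 0.265 and 0 CPM in the knockout libraries. SPNS1, a spinster transporter of the lysosome, had 113 and 143 CPM in Hep3B and 119 and 134 CPM in the knockout libraries, or -0.02 on the log2 scale.

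**Figure D5:**
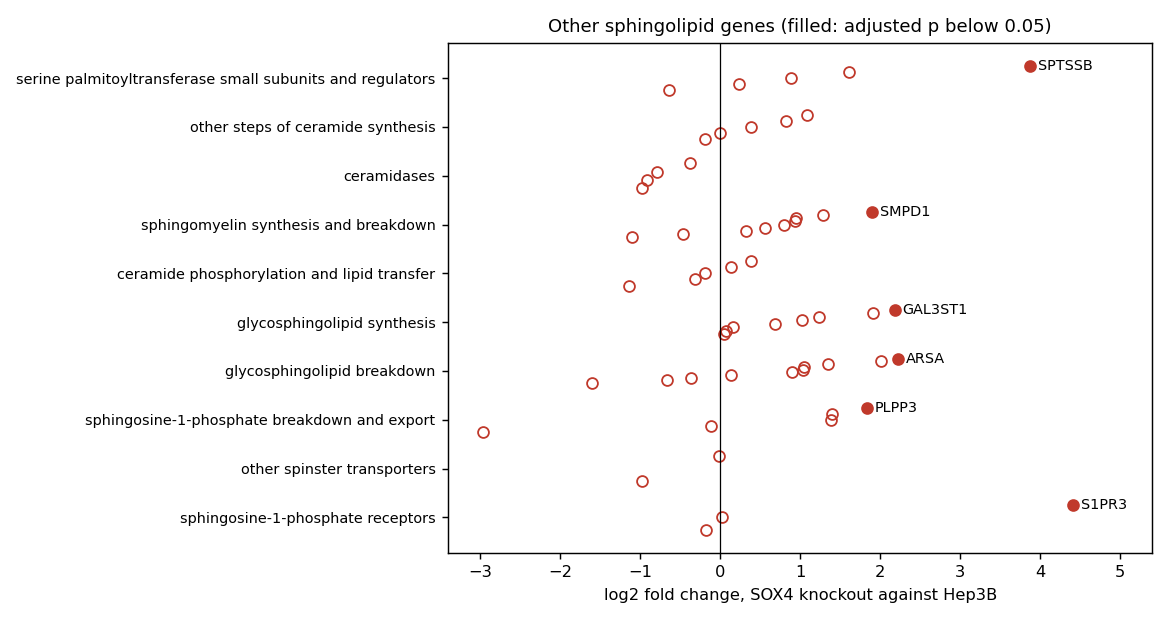
Log2 fold changes of the 56 other sphingolipid genes tested in the libraries labelled SOX4 knockout against Hep3B, by role, with filled points for genes with an adjusted p-value below 0.05 (edgeR). The 6 filled points lie between 1.83 and 4.41, and the ceramidases lie below 0 as open points.

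With STAT6 siRNA, 56 of the 63 genes were in the table, 54 were tested and 0 passed the test, and 0 of them had an unadjusted p-value below 0.05 with edgeR. STAT6 itself did not pass either, so this test cannot decide whether these genes responded. DESeq2 also called 0. The median log2 fold change was 0.04, where that of all genes was -0.0326. The largest by the rule for named genes were SMPD1 (0.80 ± 0.66), GAL3ST1 (0.80 ± 0.82), CERS4 (0.61 ± 0.65), SPNS1 (0.58 ± 0.64) and PLPP2 (0.58 ± 0.76). In that order, the fit corrected for GC content and length gave 0.51, 0.54, 0.28, 0.19 and 0.45. SMPD1 had 56.9 and 29.4 CPM with control siRNA and 105 and 44.7 CPM with STAT6 siRNA, and the groups overlapped. S1PR3 had 3.22 and 4.67 CPM with control siRNA and 3.60 and 5.61 CPM with STAT6 siRNA (0.23 ± 0.75). SPTSSB had 2.60 and 8.13 CPM with control siRNA and 2.20 and 7.34 CPM with STAT6 siRNA (-0.16 ± 0.85). Neither receptor nor subunit separated the groups here. The 4 ceramidases tested had log2 fold changes below 0 with STAT6 siRNA too, from -1.46 to -0.05, and 0 passed the test. Libraries did not overlap for 1 of them, where 5.26% of all genes tested were lower without overlap.

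Promoter sequence was read for the genes with an entry in the RefSeq table (GRCh38.p14), which holds 250 bases before and 50 after each start. Of the 10 genes 7 had an entry, with 10 windows, and of the 6 genes that rose 5 had one, with 8 windows. SPTLC3, SPNS2, CERS2 and ARSA had none. Both strands were searched for AACAAAG and AACAATG, core letters bound by SOX proteins, and for TTCNNNNGAA, the spacing that STAT6 is known to bind. The study gives a SOX4 consensus with more forms than AACAAAG and AACAATG, and the other forms were not searched. The first 2 motifs cannot match at the same position of a strand. They occur in 5.2% and 3.33% of the 35116 windows of the table and the third in 6.44%. Of the 10 windows, 1 held AACAAAG, that of SPHK2 at the downstream start, and the 8 windows of genes that rose held no match. The stretch before the first deposited start is shown for SPTLC1 and CERS6, which were lower in the knockout libraries, and for S1PR3 and PLPP3, which rose, chosen after their values were seen, to set their CpG content side by side. Capitals mark CG dinucleotides, the bases at which DNA methylation is placed.
SPTLC1 (chr9:92115476-92115663, reverse strand): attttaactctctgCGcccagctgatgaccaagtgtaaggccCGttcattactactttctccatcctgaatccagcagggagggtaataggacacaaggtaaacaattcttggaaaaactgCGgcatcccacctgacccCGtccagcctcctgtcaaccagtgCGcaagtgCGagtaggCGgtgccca
CERS6 (chr2:168456022-168456248, forward strand): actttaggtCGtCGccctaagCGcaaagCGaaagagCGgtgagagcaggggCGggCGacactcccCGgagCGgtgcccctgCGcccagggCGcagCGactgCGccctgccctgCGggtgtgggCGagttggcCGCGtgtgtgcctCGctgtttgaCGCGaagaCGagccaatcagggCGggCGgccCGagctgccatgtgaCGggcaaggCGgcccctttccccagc
S1PR3 (chr9:88991218-88991408, forward strand): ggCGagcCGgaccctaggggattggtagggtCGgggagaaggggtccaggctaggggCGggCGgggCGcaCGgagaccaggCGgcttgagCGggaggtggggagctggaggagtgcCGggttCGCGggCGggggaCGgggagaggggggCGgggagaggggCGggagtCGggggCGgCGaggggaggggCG
PLPP3 (chr1:56579586-56579813, reverse strand): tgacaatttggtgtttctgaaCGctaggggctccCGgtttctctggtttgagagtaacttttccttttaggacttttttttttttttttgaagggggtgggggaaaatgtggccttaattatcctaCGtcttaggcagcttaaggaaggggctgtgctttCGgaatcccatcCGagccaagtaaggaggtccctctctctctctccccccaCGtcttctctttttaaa
The stretches hold 7 CG dinucleotides in 188 bases for SPTLC1, 26 in 227 for CERS6, 20 in 191 for S1PR3 and 6 in 228 for PLPP3. The whole windows held 22 (SPTLC1), 38 (CERS6), 32 (S1PR3, at this start) and 11 (PLPP3), where the median of all windows was 14. For CERS6, 9.91% of all windows held as many or more, for S1PR3 at this start 18.9%, for SPTLC1 37.7% and for PLPP3 54.7%. The other S1PR3 window held 17, and 46.0% of all windows held as many or more.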

How the data were processed

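RNA-seq of 8 Hep3B libraries was used, grouped by their labels. In 2 tables, one per comparison, the authors deposited expected counts (estimated, fractional and not normalized) of RefSeq transcripts. The submitters' processing notes name STAR, Partek and hg38, and their versions and settings are not given in the sources used here. Libraries were made with a stranded mRNA kit, and whether counting used strand is not stated. No listed transcript sums to less than 10 over the 4 libraries. 0 columns lacked a library. Genes whose names had become dates (19 per table) were separated by chromosome.

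Counts were summed per gene, rounded, filtered with filterByExpr, scaled with TMM and tested with edgeR 4.0.16 in R 4.3.3 (glmQLFit, glmQLFTest), each table on its own, with Benjamini-Hochberg adjustment over all genes and a threshold of 0.05. Log2 differences between libraries used a prior count of 2. Library totals were 16266282 to 25353113 counts. At the library sizes after TMM scaling, 3 counts are 0.114 to 0.22 CPM. A fold against libraries with at most 1 count was computed against a floor of 3 counts per library. With 2 libraries against 2, an exact permutation test of a single value cannot go below 0.333, so none was used. Lengths and GC content came from GENCODE 29 (93.6 and 93.7% of transcripts matched by accession). Promoter windows came from RefSeq. The steps were tested on simulated counts. For the knockout comparison, 6 and 8 of 50 genes set at -1.5 and 1.5 on the log2 scale were recovered. At -3 and 3 these were 43 and 41 of 50, with 13 false calls over 14191 genes tested. For the siRNA comparison, 2 and 3 of 50 were recovered at -1.5 and 1.5, and 33 and 38 at -3 and 3. There were 4 false calls over 13337 genes tested. Most genes set at -1.5 or 1.5 were thus missed. The false calls are to be set against the genes recovered, not only against all genes tested. Only genes that averaged 50 counts or more were set to change. Libraries were drawn independently, without an effect shared by library number.

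The 10 genes, the gene lists and the tests were chosen with earlier results of these data known. Named were the 10 genes, SOX4 and STAT6, every listed gene that passed the test, in each comparison the 5 listed genes with the largest absolute log2 fold change and a mean of at least 20 counts, and the 5 genes most like SPTLC3 and SPNS2. The remaining genes given by role, the marker genes named and the overlapping genes were named after their values were seen.

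Alternatives were upper-quartile or median-of-ratios scaling, DESeq2 1.42.0, other filters, the library number as a block, all 8 libraries together, leaving out each library, and the longest transcript as length. Offsets for GC content and length (mgcv 1.9.3), alone and with the block, were added after seeing the data. ChIP-seq and other data of the study were not analysed here. Of the genes most like SPTLC3, 1 is not reported.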

Additional observations from a re-analysis of the deposited data

How the results depend on the processing

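In the knockout comparison the count of genes with an adjusted p-value below 0.05 was 849, of which 76.3% were higher. It was 518 with at least 10 counts in every library, 2160 with DESeq2 (63.9% higher), 477 with offsets for GC content and length, 59 with these offsets and the library number as a block, and 21 to 2298 with 1 library left out. Of the other sphingolipid genes, 6 became 14 with DESeq2, 3 with the offsets, 2 with the offsets and block, 2 in a fit of all 8 libraries, and 0 to 12 with 1 library left out. With 1 library left out, the lone library is assumed to vary like the others, and fewer libraries are fitted. For the other changes the cause was not tested. Library numbers are shared across groups, but no label states that they pair. Deviations of libraries with the same number correlated at -0.085 (knockout) and 0.873 (siRNA). With the block, 982 genes were called in the knockout comparison and 62 in the siRNA comparison in place of 0, and with offsets and block 362, among them 3 of the other sphingolipid genes (GM2A, HEXA and SMPD1). STAT6 itself, at -2.22 with an adjusted p of 1.0, passed the edgeR test with the block (-2.25, adjusted p = 4.11e-20) and with offsets and block (-2.39, adjusted p = 1.14e-46), and in no other alternative. None of the 9 genes described was called in any alternative of the siRNA comparison.

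The log2 fold changes of SPTLC1, SPTLC2, CERS2, CERS6, SGPL1 and SPNS2 kept their sign in the knockout comparison in all 13 alternatives, that of SPTLC3 in the 12 that gave it a value, CERS5 in 12, SPHK2 in 11 and SPHK1 in 10. SPTLC3 has no value where at least 10 counts in every library are asked for. In the siRNA comparison SPTLC2 turned to 0.02 with offsets and block, and SPNS2 to -0.35 with offsets, -0.32 with offsets and block and -0.04 with the block. With 1 library left out, the siRNA values ran from -1.16 to 0.63 (SPTLC1), -0.53 to 0.25 (SPTLC2), -0.24 to 0.35 (CERS2), -1.19 to 0.53 (CERS6), -0.33 to 1.16 (SPHK1), -0.22 to 0.82 (SPHK2), -0.82 to 0.68 (SPNS2), -0.25 to 1.29 (CERS4) and -0.35 to 1.21 (SPNS1), and SOX4 in the knockout comparison from -1.42 to 0.11. Such siRNA fits set libraries of unequal number against each other. In the siRNA comparison 0 genes were called in each fit with 1 library left out. Depth limits SPNS2 outside the knockout libraries, where it rests on 15 to 39 counts per library.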
